A study of Ovis aries with 5 samples.

Results

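BCL2L1, FLT3LG and MAPKAP1 are 3 genes of cell survival and growth signalling whose RNA levels differed at least 2-fold between CD26+ and CD26- dendritic cells (DC) of sheep lymph in each of 2 animals. They were chosen by that measured difference in log2 ratio between the subsets, on the probe with the highest mean signal of each gene, so the difference itself is described here without a test. Their 5 probes, found by gene name and probe description, are part of 15008 distinct probes and of 660 genes that could be named.

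DC are antigen-presenting cells that travel from the skin to the lymph nodes. Skin lymph DC carrying CD1b, which presents lipid antigens, had been sorted into cells with and without CD26, a peptidase of the cell surface. Each subset gave 2 arrays, from sheep 30066 and sheep 10081, with the Cy3-labelled sample set against a Cy5-labelled common reference. The reference was RNA of total enriched lymph DC from different sheep, and a further array carried it in both dyes (the self-hybridisation, called total DC below). The sheep had no treatment, genotype or age in the labels, and the number of animals behind the reference is not given there. The labelling protocol names a culture of LP-1cl1 cells as the Cy5 reference, against the sample labels, which are followed here. All 5 arrays lay on 1 slide read in 1 scan, with the arrays of each sheep in a separate row. An effect of the row on the slide and a difference between the animals cannot be told apart. The dyes were not swapped.

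The proteins act at different steps. BCL2L1 encodes Bcl-x, whose long splice form Bcl-xL holds back cell death at the mitochondrion by restraining BAX and BAK. FLT3LG is the cytokine that binds the receptor FLT3 on progenitors and DC and drives DC development. MAPKAP1 encodes SIN1, a subunit of mTOR complex 2, the kinase complex that phosphorylates AKT below growth factor receptors.

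The 60-base probes are printed 5′ to 3′ because BCL2L1 and FLT3LG were each read by a pair of almost identical oligos. Capitals mark the bases that the probes of a pair share, and the MAPKAP1 probe has no partner and is in lower case.
BCL2L1 probe 1: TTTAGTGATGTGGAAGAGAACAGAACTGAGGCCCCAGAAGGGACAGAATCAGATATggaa
BCL2L1 probe 2: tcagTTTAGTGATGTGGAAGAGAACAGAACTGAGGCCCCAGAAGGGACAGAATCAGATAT
FLT3LG probe 1: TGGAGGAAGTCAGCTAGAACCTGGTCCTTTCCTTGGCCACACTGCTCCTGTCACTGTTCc
FLT3LG probe 2: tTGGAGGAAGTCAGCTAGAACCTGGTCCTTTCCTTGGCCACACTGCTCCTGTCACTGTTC
MAPKAP1 probe: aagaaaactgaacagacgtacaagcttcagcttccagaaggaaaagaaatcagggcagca

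The BCL2L1 probes shared 56 bases at an offset of 4, and the FLT3LG probes shared 59 bases at an offset of 1. The probes of a pair are therefore repeat readings of 1 stretch of RNA, not separate evidence. G and C made up 45.0% of each BCL2L1 probe, 55.0% and 53.3% of the FLT3LG probes and 43.3% of the MAPKAP1 probe. None of these probes shared 20 or more bases in a row, on either strand, with any of the 15003 other probes. The array names them BCLX, LOC780525 and SIN1. Their accessions tied each to its present symbol in a sheep RefSeq table (assembly ARS-UI_Ramb_v3.0). The files do not say which splice forms of BCL2L1 a probe reads.

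All 5 probes were well above background in both dyes on all 5 arrays, with no saturated or outlier-flagged spot. Values below are log2 ratios of Cy3 sample over Cy5 reference after background correction and normalisation within the array, unless they are called signals, which are uncorrected spot means in scanner units.

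BCL2L1 was lower in CD26+ cells, by about the same amount in both sheep. On probe 1, CD26- cells had log2 ratios of 0.575 in sheep 30066 and 0.79 in sheep 10081, and CD26+ cells had -1.34 and -1.39. The self-hybridisation gave -0.09. Both CD26- arrays lay above total DC and both CD26+ arrays below it. CD26+ cells were 3.76-fold lower in sheep 30066 and 4.5-fold lower in sheep 10081. The mean difference was -2.04 ± 0.18 (SD, n = 2 sheep), with an SE of 0.34 in the limma fit. The plain Cy3 signals showed the same order, with 493.9 and 659.2 units in CD26- cells, 128 and 168.6 in CD26+ cells and 299.6 in total DC. The Cy5 reference signal of the same spots stayed between 555.9 and 724.7 units. Probe 2 gave 0.58 and 0.77 in CD26- cells and -1.57 and -1.44 in CD26+ cells, a mean difference of -2.18 ± 0.05 (SD, n = 2 sheep).

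FLT3LG was also lower in CD26+ cells, but its 2 sheep differed in size. On probe 1, sheep 30066 had a log2 ratio of 1.17 in CD26- cells and -2.35 in CD26+ cells. Sheep 10081 had 0.01 and -1.01. The self-hybridisation gave 0.38, so that in sheep 30066 total DC lay between the subsets, while in sheep 10081 both subsets lay below it. CD26+ cells were 11.4-fold lower in sheep 30066 and 2.03-fold lower in sheep 10081. The mean difference was -2.27 ± 1.76 (SD, n = 2 sheep), with an SE of 0.69 in the limma fit. That fit did not pair the arrays by sheep. Its SE therefore does not measure the spread of the differences within the 2 sheep.

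The Cy3 signals of FLT3LG probe 1 were 5479 units in CD26- and 429.9 in CD26+ cells of sheep 30066. In sheep 10081 they were 2205 and 1476 units, a 1.49-fold difference before the reference was taken into account. The Cy5 signal of this spot ranged from 4433 to 6854 units, a ratio of 1.55 between the highest and the lowest array, and its highest value was on the CD26+ array of sheep 10081. Over all tested probes the median of that ratio was 1.38. The Cy3 signals alone therefore gave a smaller difference in sheep 10081 than the ratio did.

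FLT3LG probe 2 gave 0.93 and -2.30 in sheep 30066, 0.01 and -0.92 in sheep 10081, and 0.26 in total DC. Its difference in sheep 10081 was 1.91-fold, under the 2-fold limit that chose the gene. Its Cy5 signals, between 3871 and 4734 units, were steadier, and its Cy3 signals in sheep 10081 differed 1.83-fold. FLT3LG therefore sits at the edge of the rule in sheep 10081 and far inside it in sheep 30066.

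MAPKAP1 ran the other way, higher in CD26+ cells. Its log2 ratios were -0.82 and -0.84 in CD26- cells of sheep 30066 and 10081, and 1.60 and 1.59 in CD26+ cells. The self-hybridisation gave -0.02, between the groups. CD26+ cells were 5.37-fold and 5.41-fold higher, a mean difference of 2.43 ± 0.01 (SD, n = 2 sheep) with an SE of 0.33 in the limma fit. The SE is wider than the SD because limma moderates it with the spread of the other probes, and the closeness of 2 sheep is itself measured on 2 values only. The Cy3 signals were 145.6 and 174.5 units in CD26- cells, 710 and 619 in CD26+ cells and 213.8 in total DC, against Cy5 signals of 337.7 to 434.5 units.

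**Figure D1:**
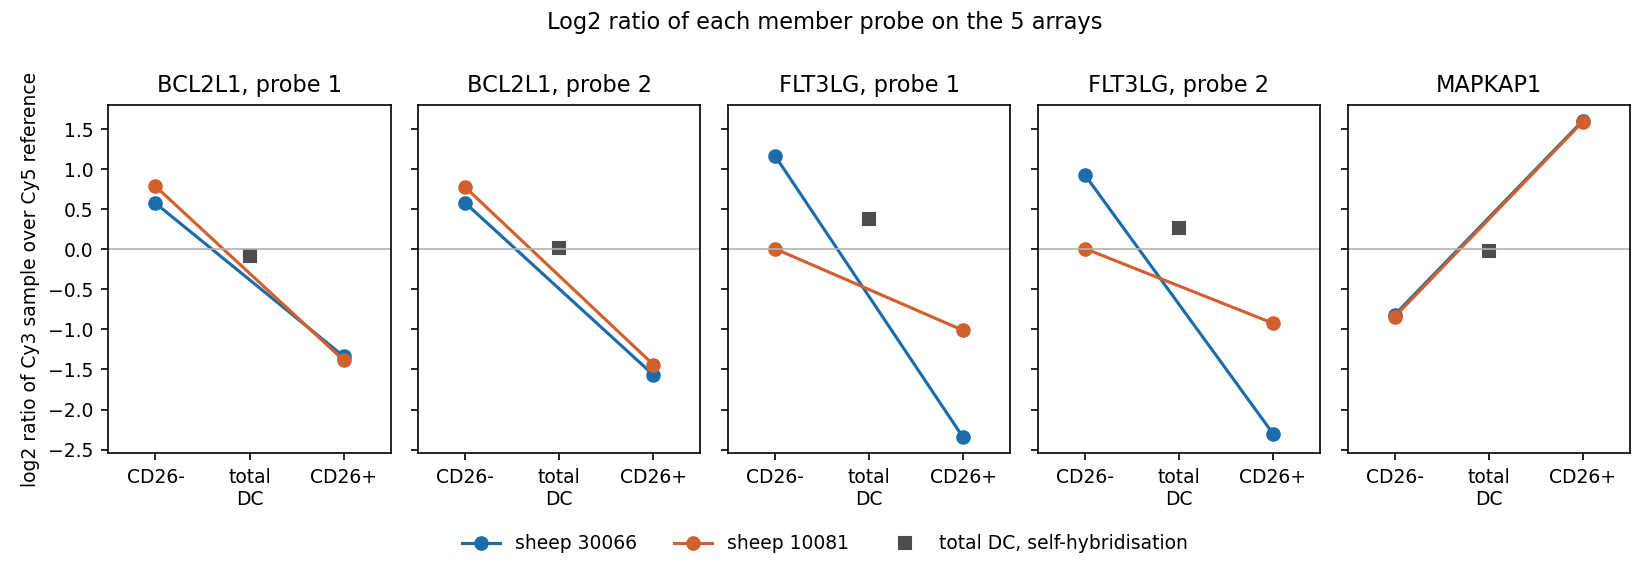
Log2 ratio of Cy3 sample over Cy5 reference (vertical axis) for each probe; circles are the arrays of 2 sheep, joined by a line within a sheep, and the square is the self-hybridisation of total DC. The lines of the 2 sheep nearly coincide for BCL2L1 and MAPKAP1, while FLT3LG starts at 1.17 in sheep 30066 and at 0.01 in sheep 10081.

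**Figure D2:**
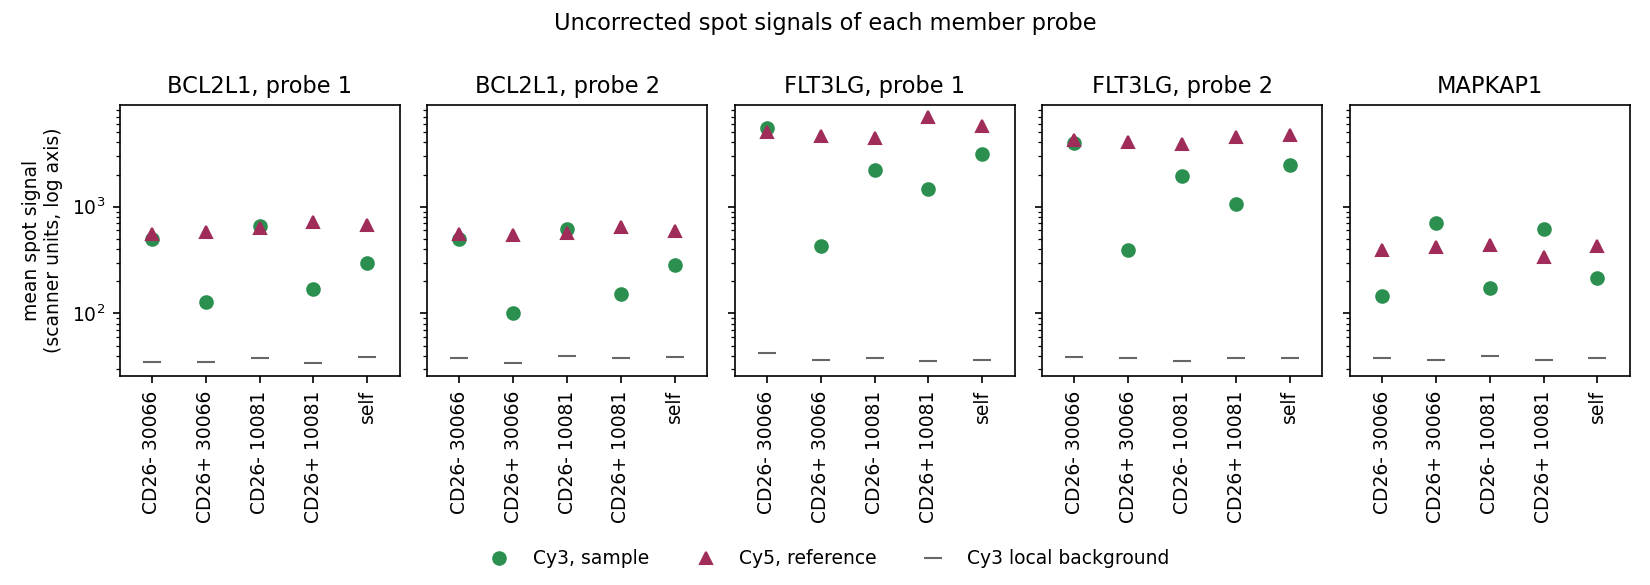
Uncorrected mean spot signal in scanner units (log axis) on each array; circles are the Cy3 sample, triangles the Cy5 reference and dashes the local Cy3 background. The Cy5 reference of MAPKAP1 stays between 337.7 and 434.5 units while its Cy3 signal runs from 145.6 to 710 units.

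The gap within each pair of overlapping probes was set beside that of other such pairs. Among 220 pairs of probes on the array that share at least 50 bases in a row, the CD26+ minus CD26- difference of the 2 probes was a median of 0.11 apart in sheep 30066 and 0.12 in sheep 10081. The gap was 0.23 and 0.04 for BCL2L1 and 0.29 and 0.09 for FLT3LG. In sheep 30066 both gaps were above the median but under the 90th percentile of 0.31.

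Of 12934 probes with a value in every subset array, 313 (2.42%) had a log2 difference of at least 1 in favour of CD26+ cells in both sheep and 386 (2.98%) one in favour of CD26- cells. A further 267 (2.06%) passed 2-fold with opposite signs. The 3 genes belong to the first groups because they were chosen so. The size of their mean difference lay at the 98.2nd to 99.2nd percentile of all these probes. Of 557 named and tested genes, 547 had a value in every subset array, and 34 of these passed the gene rule. FLT3LG was the gene closest to the limit from inside, at -1.02 in its weaker sheep, followed by ARG2 (-1.05) and CLEC6A (-1.05). The closest genes outside were UCP3 (-0.99), ASIP (-0.98) and EEF1E1 (-0.94).

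Across all 12934 probes the differences of the 2 sheep had a Pearson correlation of 0.21, given as a description since probes on the same arrays are not independent. The limma fit called 0 of 13264 probes (0%) between the subsets at a Benjamini-Hochberg adjusted p under 0.05. Its smallest adjusted p was 0.765, and 748 probes had an unadjusted p under 0.05.

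**Figure D3:**
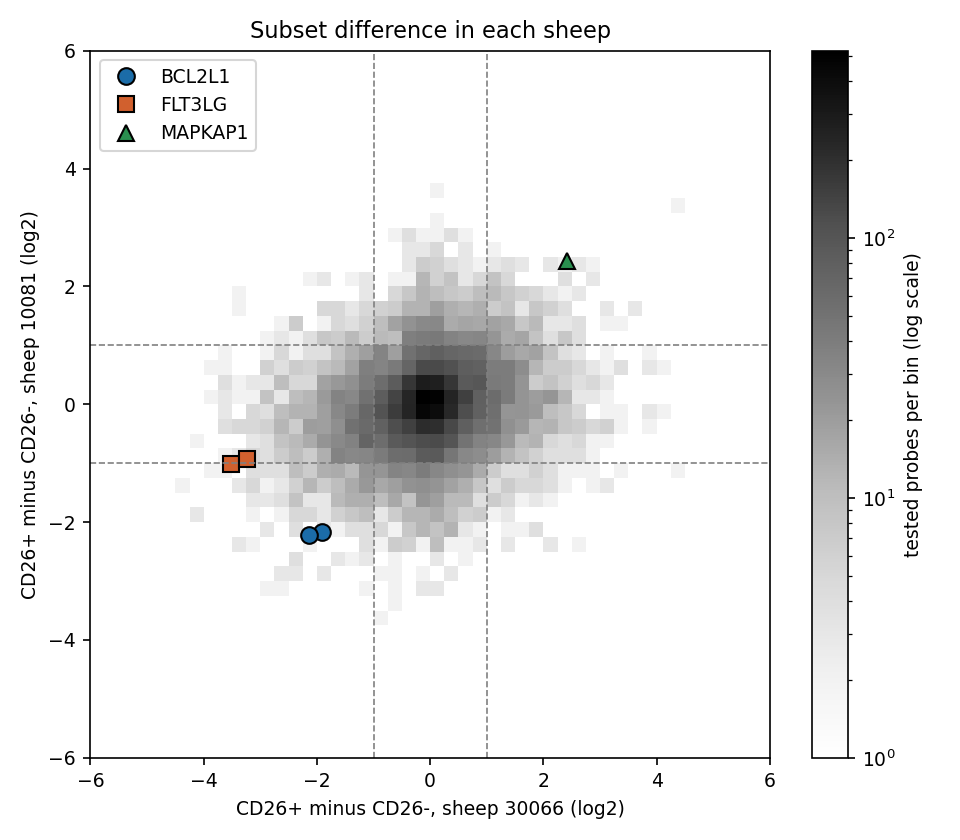
CD26+ minus CD26- log2 difference in sheep 30066 (horizontal) and sheep 10081 (vertical); grey squares count tested probes per bin on a log scale, coloured symbols are the 5 member probes and dashed lines mark 2-fold. MAPKAP1 and BCL2L1 lie near the diagonal at about equal size in both sheep, and FLT3LG lies far along the axis of sheep 30066 and at the 2-fold line of sheep 10081.

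The position of the total DC between or outside the subsets was not part of the rule. Total DC lay between the subsets in both sheep for BCL2L1 and MAPKAP1, on every probe, and in sheep 30066 only for FLT3LG. Among all 694 probes that were at least 2-fold apart the same way with total DC measured, it lay between the subsets in both sheep for 209 (30.1%). The mean of both subsets minus total DC, a contrast that does not depend on their difference, was -0.25 for BCL2L1 probe 1 (SE 0.38, limma adjusted p = 0.858), -0.92 for FLT3LG probe 1 (SE 0.77, adjusted p = 0.715) and 0.41 for MAPKAP1 (SE 0.37, adjusted p = 0.746). None of these passed, and the fit called 0 of 13204 probes (0%) in this contrast, with 1553 at an unadjusted p under 0.05.

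Each subset was also set against total DC. CD26+ cells differed from total DC by -1.27 for BCL2L1 probe 1 (SE 0.42), by -2.06 for FLT3LG probe 1 (SE 0.84) and by 1.62 for MAPKAP1 (SE 0.41). CD26- cells differed from total DC by 0.77, 0.21 and -0.81 in the same order; with no spot kept out of the background model the value was 0.42 for BCL2L1 and -0.31 for MAPKAP1. For FLT3LG the CD26- step was 0.79 in sheep 30066 and -0.37 in sheep 10081, so its sign was not the same in both. Both steps share the subset arrays that chose the genes and the same 1 control array, so they carry no p-value here. In the limma fit over all probes 0 of 13204 were called for either subset against total DC (0%), with 1493 and 1400 at an unadjusted p under 0.05. At least 2-fold from total DC in both sheep were 9.9% of probes higher and 8.79% lower for CD26+ cells. For CD26- cells the shares were 10.2% higher and 7.51% lower. The member probes are not counted against these shares, since they were chosen on the same subset arrays. A control added after the data were seen was the Cy5 reference on the subset arrays themselves. Against it limma called 4.83% of 13264 probes higher and 3.95% lower in CD26+ cells, and 4.92% higher and 3.18% lower in CD26- cells.

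The mean level of the 2 sheep, averaged over subsets, was also independent of the rule. Sheep 30066 minus sheep 10081 was -0.08 for BCL2L1 probe 1 (SE 0.30, limma adjusted p = 0.923), -0.09 for FLT3LG probe 1 (SE 0.75, adjusted p = 0.968) and 0.02 for MAPKAP1 (SE 0.295, adjusted p = 0.982). No difference between the animals was detectable for these genes, and for FLT3LG the SE leaves room for a large difference in either direction. The fit called 0 of 13261 probes (0%) between the sheep.

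The other measured members of the BCL2 family had mean differences between -0.64 and 0.37. Of 22 genes of the BCL2 family, 6 could be named and tested. None was higher in CD26+ cells of both sheep, 4 were lower in both and 2 went opposite ways, with a median difference of -0.34, BCL2L1 included. Over all 12934 probes 3563 were higher in both sheep, 3694 lower in both and 5677 opposite, with a median of -0.01.

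BCL2, the founding member that blocks cell death, had log2 ratios of 1 and 0.34 in CD26- cells and 0.46 and 0.28 in CD26+ cells, a mean difference of -0.30 (SE 0.41, limma adjusted p = 1). On the self-hybridisation BCL2 read 1.06, so against total DC it was -0.39 in CD26- and -0.69 in CD26+ cells. MCL1, another protector, differed by -0.04 in sheep 30066 and 0.77 in sheep 10081 (mean 0.37, SE 0.57, adjusted p = 1). BAX, which opens the mitochondrial membrane, differed by -0.26 and -0.09 (mean -0.18, SE 0.36, adjusted p = 1). Its fellow effector BAK1 differed by 0.015 and -0.77 (mean -0.38, SE 0.78, adjusted p = 1). BAD, which binds and neutralises Bcl-xL, differed by -1.02 and -0.26 (mean -0.64, SE 0.54, adjusted p = 0.987).

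Of 28 genes of the caspases, the death receptors and their partners, 3 could be tested: 1 was higher in both sheep, 1 lower and 1 opposite, with a median of -0.11. FAS, the death receptor, was 1.38 higher in sheep 30066 and 1.44 higher in sheep 10081 on its brighter probe (mean 1.41, SE 0.34, limma adjusted p = 0.774). On that probe the log2 ratios were -0.79 and -0.95 in CD26- cells and 0.58 and 0.49 in CD26+ cells. A second probe, from another stretch of the RNA, gave 0.47 and 0.42 in CD26- and CD26+ cells of sheep 30066 and -0.25 and 1.03 in sheep 10081, a mean difference of 0.61. The probes of FAS therefore disagreed in sheep 30066.

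The haematopoietic growth factors and their receptors were mixed in direction. Of 29 such factors and receptors, 10 were tested: 3 were higher in both sheep, 4 lower in both and 3 opposite, with a median of -0.02, FLT3LG included. The receptor FLT3 was not analysed here. IL7, the lymphocyte growth factor, was the only other member lower by more than 1 on the log2 scale on average: 1.01 and 0.09 in CD26- cells against -0.72 and -0.46 in CD26+ cells of sheep 30066 and 10081 (mean -1.14, SE 0.47, limma adjusted p = 0.886). Like FLT3LG it had its larger difference, -1.73, in sheep 30066 and its smaller, -0.54, in sheep 10081. IL3 had a mean difference of 1.23 in the other direction (SE 0.51, adjusted p = 0.888), and 1 of its spots on the CD26- array of sheep 10081 was left out as an outlier. With no spot kept out of the background model the mean difference of IL3 was 0.11 and that of IL7 -0.51. KITLG and KIT, the ligand and receptor pair most like FLT3LG and FLT3, had mean differences of 0.15 and -0.15. KIT was well above background on only 2 arrays, so its difference near 0 says little.

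FLT3LG is also made by T cells and stromal cells, so markers of those cells are given beside it. Of 11 T cell markers 8 were tested, of which 4 were higher in CD26+ cells of both sheep, 3 lower and 1 opposite, with a median of 0.22. Their median log2 ratio was -0.07 and 0.615 on the CD26- arrays of sheep 30066 and 10081 and -0.09 and 1.36 on the CD26+ arrays. CD3D, a chain of the T cell receptor complex, was 1.41 and 4.11 in CD26- and 0.10 and 3.18 in CD26+ cells, so it was lower in CD26+ cells of both sheep. GATA3, a transcription factor of T cells, was 1.89 and 1.53 in CD26- and -1.14 and 1.41 in CD26+ cells of sheep 30066 and 10081, a difference of -3.02 in the first and -0.12 in the second. CD5 and CD247 were higher in CD26+ cells of both sheep, with mean differences of 1.57 and 1.35. CD3E, CD3G, CD4 and CD28 had mean differences between -0.06 and 0.55. The stromal collagens COL1A1 and COL3A1 had mean differences of -0.09 and -0.07. COL1A1 and CD4 were well above background on only 2 arrays, so a difference near 0 says little for them. The part of other cells in the FLT3LG values was not tested. Fewer cells of a type and less RNA per cell cannot be told apart in these bulk samples.

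The DC identity of the sorted cells rests on few named probes. CD1B, the protein on which both subsets were sorted, differed by -0.31 on average between them (SE 0.58), and its log2 ratio ranged from -0.995 to 0.296. The self-hybridisation gave -0.745 for CD1B. The costimulatory genes CD86 and CD80 were 1.11 and 0.54 higher in CD26+ cells on average. Markers of different DC subsets were lower in CD26+ cells of both sheep. Mean differences were -1.64 for FCER1A, -1.25 for CLDN1, -1.10 for CD14 (SE 0.60) and -1.09 for TLR3 (SE 0.62). FCER1A and CLDN1 were at least 2-fold lower in each sheep. CD14 and TLR3 differed by -1.87 and -1.80 in sheep 10081 but only by -0.32 and -0.37 in sheep 30066. Of 4 tested monocyte and macrophage markers, with the same CD14 probe among them, 3 were lower in CD26+ cells of both sheep and 1 was opposite. Their median was -0.93. Over all 12934 probes 3694 were lower in both sheep.

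The surroundings of MAPKAP1 were almost unmeasured. Of 36 genes of the mTOR complexes and AKT, 2 could be tested, MAPKAP1 itself and RPS6, a ribosomal protein phosphorylated below mTOR complex 1. RPS6 had log2 ratios of -0.94 and -2.12 in CD26- cells and -1.92 and -1.50 in CD26+ cells, so its difference was -0.98 in sheep 30066 and 0.62 in sheep 10081 (mean -0.18, SE 0.54, limma adjusted p = 1). On the self-hybridisation RPS6 read -0.87, so against total DC it was -0.66 in CD26- and -0.84 in CD26+ cells. MTOR, RICTOR, MLST8 and the AKT kinases were not analysed here. Of 30 signalling genes below cytokine receptors STAT5A alone was tested. This transcription factor, which several of the cytokine receptors activate, differed by 0.97 and 0.32 (mean 0.65, SE 0.64, adjusted p = 1).

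Among 34 other growth factors and receptors 19 were tested. 6 were higher in CD26+ cells of both sheep, 3 lower and 10 opposite, with a median of 0.09. On the brightest probe of each gene, the largest mean differences were those of FGF2 and IGF1R. FGF2, a fibroblast growth factor, was at 1.07 (SE 0.41, limma adjusted p = 0.881), and its second probe gave 0.62. IGF1R, the receptor for insulin-like growth factor, was at -1.03 (SE 0.54, limma adjusted p = 0.936), and its 3 probes ran from -1.53 to -0.80. IGF1R was below total DC on all 4 subset arrays. Its log2 ratios there were between -0.76 and -2.65, against 0.18 on the self-hybridisation. Over the 38 tested genes of all these lists without the 3 members, 11 were higher in both sheep, 10 lower in both and 17 opposite. Their median was 0.001, and 1 of them, FAS, was 2-fold apart the same way in both sheep, on its brighter probe only.

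**Figure D4:**
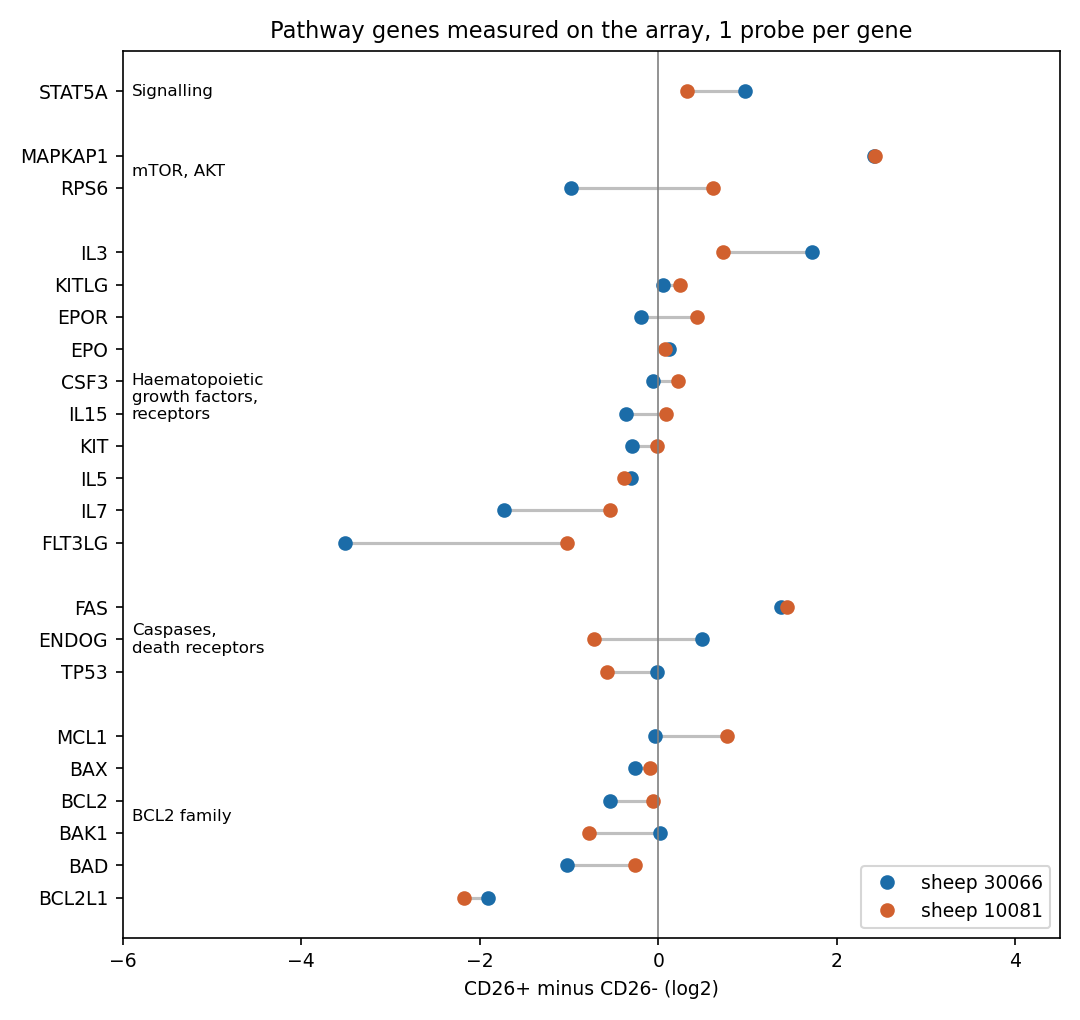
CD26+ minus CD26- log2 difference (horizontal axis) of each tested gene of 5 pathway lists, with 1 point per sheep joined by a grey line and 1 probe per gene. MAPKAP1, BCL2L1 and FAS, here on its brighter probe, have their sheep close together and away from 0. FLT3LG has them far apart at -3.52 and -1.02, and most other genes lie near 0.

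The genes with the most similar pattern were sought by the root mean square difference in log2 ratio over the 5 arrays, among 543 named genes. TLR8, an endosomal receptor for RNA, was the closest to BCL2L1 at 0.44, followed by ART4 (0.44) and BMP4 (0.46). TLR8 had 0.32 and 0.93 in CD26- cells and -0.75 and -2.10 in CD26+ cells. C3, the complement component, was the closest to FLT3LG at 0.43, followed by TM7SF2 (0.49) and ASIP (0.59). C3 had 0.64 and 0.03 in CD26- cells and -2.60 and -0.25 in CD26+ cells. Its difference was larger in sheep 30066, a likeness to FLT3LG that the search itself picked for. CD1, so named in the RefSeq table, was the closest to MAPKAP1 at 0.52, followed by XDH (0.53) and FGF2 (0.65). CD1 had -0.18 and 0.03 in CD26- cells and 1.46 and 1.95 in CD26+ cells.

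The differences of BCL2L1 and MAPKAP1 moved with the background model, and that of FLT3LG with the array left out. When no spot was kept out of the background model, BCL2L1 probe 1 had a mean difference of -1.43 in place of -2.04, and in sheep 30066 it was -0.96, under 2-fold. MAPKAP1 was 1.85 under that model and between 2.19 and 2.48 under the other background and normalisation methods. FLT3LG probe 1 stayed between -2.30 and -2.07 on average, but in sheep 10081 it was -0.99 with the scanner's processed signals and -1.22 with median centring. Without the CD26+ array of sheep 30066 its mean difference was -1.60, and without that of sheep 10081 it was -2.94.

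**Figure D5:**
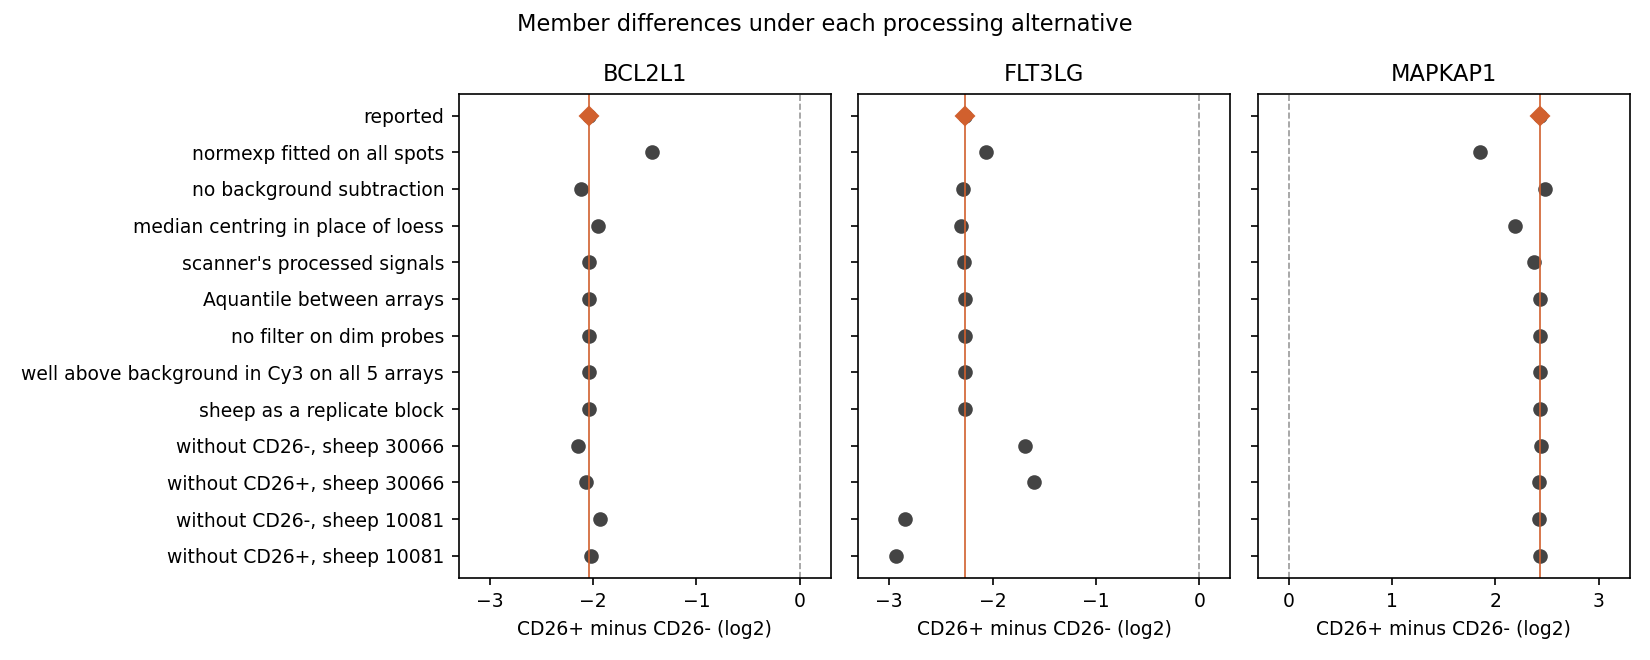
CD26+ minus CD26- log2 difference (horizontal axis) of the brighter probe of each gene under every setting tried, with the reported value as a diamond and a vertical line. Fitting the background model on all spots brings BCL2L1 to -1.43 and MAPKAP1 to 1.85, and leaving out an array moves FLT3LG between -2.94 and -1.60.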

How the data were processed

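Total RNA (200 ng per sample) was amplified and labelled, per the labels. Per the file headers, the deposited scanner output (Feature Extraction 9.5.3.1) gives linear spot intensity, local background and a log10 ratio of processed signals. The series' deposited value table held log2 ratios that equalled the negative of that log10 ratio on the log2 scale to within 5e-10, with column medians of -0.07 to 0.01, and so gave no independent values.

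Mean signals were corrected with normexp (offset 50), normalised by loess within each array and turned into log2 ratios, Cy3 divided by Cy5 (limma 3.58.1, R 4.3.3). The 536 control spots, outlier-flagged spots (49 to 157 per array) and spots with local background over 5 times the array's median (0 to 9 per array) were left out; normexp was fitted without the last. The 13264 probes whose Cy3 signal was well above background on 2 or more arrays were tested. Median Cy3 signals were 204 to 307 units over a background of 36.5 to 39, and 5 arrays limit the precision of every value. The fit had 3 group means on 2 residual and 2.36 prior degrees of freedom, with Benjamini-Hochberg adjustment over all tested probes, and was tested on simulated data. CD26+ and CD26- arrays are paired by sheep, per the labels, and the deviations of a sheep's 2 arrays from their group means correlated with r = 0.33.

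Named genes are all probes of the members; the 2 tested genes with the largest difference in each list; fixed partners; and the 3 genes nearest each member over 5 arrays. Where probes shared a gene, the brightest stood for it. The members and lists were chosen with earlier results of these data known. A gene that this rule names and that belongs to a pathway list is not reported here and is not counted. Names of 27 probes, among them those of MCL1, BAK1, IGF1R and INSR, were set by hand from the names in the files after values had been seen. Alternatives were other background and normalisation methods, the filter, sheep as a block and leaving out each array.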

Additional observations from a re-analysis of the deposited data

Results flagged for a closer look

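Among the pathway genes that the naming rule picked, 3 had subset differences of opposite sign in the 2 sheep. MCL1 was -0.038 in sheep 30066 and 0.77 in sheep 10081 (CD26+ minus CD26-, log2). BAK1 was 0.015 and -0.77. RPS6 was -0.98 and 0.62. Outside that rule, signs were also opposite for CD3E (-0.27 and 0.96), INSR (2.05 and -1.29), IGFBP4 (-1.33 and 0.52) and NRG1 (0.23 and -1.435). With 1 array per subset and sheep, a difference between the animals in the subset difference was not tested. Opposite signs were found for 5677 of the 12934 probes with a value in every subset array.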

How the results depend on the processing

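BCL2L1, FLT3LG and MAPKAP1 kept their direction between the subsets under every alternative run. They were chosen on these same arrays for a 2-fold difference in both sheep, so a reversal was unlikely and the kept direction is no separate evidence. Fitting the background model on all spots gave -1.43 for BCL2L1 probe 1 and 1.85 for MAPKAP1, and reversed BAK1 (0.13) and BAD (0.053); the cause was not tested. MAPKAP1 was 2.48 without background subtraction, 2.19 with median centring and 2.38 with the scanner's processed signals. FLT3LG in CD26- cells against total DC was -0.016 with the processed signals. Leaving out each subset array gave 2.42 to 2.44 for MAPKAP1, -2.15 to -1.94 for BCL2L1 and -2.94 to -1.60 for FLT3LG; for FLT3LG in CD26- cells against total DC it gave -0.37 to 0.79 on probe 1 and -0.25 to 0.67 on probe 2. The same step gave ranges across 0 for BCL2 (-0.63 to 0.027), STAT5A (-0.058 to 1.35), RPS6 (-0.77 to 0.41), BAK1 (-1.29 to 0.53), MCL1 (-0.28 to 1.01) and the median of the pathway genes (-0.061 to 0.067). With sheep as a replicate block limma called 0 probes in each comparison, as without it. Setting the mean intensities of the arrays to the same quantiles leaves log ratios as they are by construction. Scaling of the log ratios themselves between arrays was not run. In a comparison added after the data were seen, the Cy5 reference replaced the self-hybridisation as control, which drops the control's own spread and leaves in any dye effect: limma then called 1165 probes for CD26+ and 1075 for CD26- cells, and the values in CD26+ cells were -1.36 for BCL2L1 probe 1, -1.68 for FLT3LG probe 1 and 1.60 for MAPKAP1, given without a call since these arrays chose the genes. The number of sheep, 2, limits every value.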

Other observations

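The insulin receptor gene INSR, a growth factor receptor outside the naming rule and picked after its values were seen, had log2 ratios of -0.72 in CD26- and 1.33 in CD26+ cells of sheep 30066, and of -0.09 and -1.38 in sheep 10081. Its difference of 2.05 in one animal and -1.29 in the other was past 2-fold in opposite directions, as for 2.06% of probes. NRG1, a ligand of the ERBB receptors picked the same way, was below total DC on all 4 subset arrays. Its log2 ratios there ran from -2.10 to -5.71, against -0.09 on the self-hybridisation.

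The binding protein gene IGFBP4, also picked after its values were seen, was far above total DC on all 4 subset arrays, with log2 ratios of 3.66 and 4.09 in CD26- and 2.33 and 4.61 in CD26+ cells of sheep 30066 and 10081, against 0.02 on the self-hybridisation. These values were not tested further.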
